A study of Mus musculus with 12 samples.

Results

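Described here are the changes between day 5 after birth (P5) and 1.5 months (1.5M) in epidermal cells of mice that lack Cbfβ2. The 6 libraries concerned, 3 from P5 and 3 from 1.5M knockout mice (KO), were taken by their column names from a series of 12 libraries, whose other 6 are wild type (wt) at the same ages. Every gene was compared, and 10023 of 23420 gene symbols passed the filter on low values and were tested. Cells of all groups were sorted from epidermis as CD45+CD3-CD11b+MHCII+ and put into tubes of 100 cells. The labels give the genotypes as Cbfbeta2 knockout and wildtype, with no strain, sex, agent or conditional allele. They call the 3 libraries of a group independent library preparations and do not state separate animals, so p-values measure the spread between preparations, which may be technical.

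Core-binding factor β is the common partner of the Runx transcription factors and raises their affinity for DNA, and Cbfβ2 is a splice form of it. Langerhans cells, the resident antigen-presenting cells of the epidermis, descend from precursors that enter the skin before birth. They acquire the lectin langerin (Cd207) and high class II in the weeks after birth, under signals from transforming growth factor β (TGF-β), and mice without Runx3 lack them. Inflamed or emptied epidermis can also be entered by monocytes, which carry Ccr2 and can take on features of macrophages or of Langerhans cells.

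Library depth and the makeup of the P5 libraries differed between the ages. By molecule numbers inferred from the scaled values, the 3 P5 KO libraries held 30913 to 51001 and the 3 1.5M KO libraries held 74620 to 77420. Every library is scaled to the same total of 37092, and values below are these scaled counts unless a log2 scale is named. P5 KO libraries held 7432 ± 600 genes above 0 (SD, n = 3) against 8065 ± 141 at 1.5M. After thinning to 30913 molecules the order turned, with 6583 ± 217 genes at P5 and 5855 ± 72.8 at 1.5M. Marker genes of cells outside the gate, 112 genes in all, took 3.37%, 1.84% and 2.30% of the P5 KO libraries and 0.116%, 0.092% and 0.0587% of the 1.5M KO libraries. The wt libraries held 0.11% to 0.427%, in which Mmp9, a gene that Langerhans cells also express, is counted. Y-linked genes and the X-inactivation transcript Xist were both above 0 in all 6 KO libraries. The gate itself was visible at RNA level, where Ptprc (CD45), Itgam (CD11b) and the class II genes were present in every KO library. Cd3e and Cd3g were at 0 throughout, and Cd3d was at 1.20 in P5 KO library 3 and at 0 elsewhere.

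In the limma fit, 172 genes rose with age in KO cells (1.72% of the 10023 tested) and 143 fell (1.43%), at a Benjamini-Hochberg adjusted p under 0.05. The groups of 3 libraries did not overlap for 312 of these 315 genes, against 1819 of all tested genes (18.15%). The median change over all tested genes was -0.06 on the log2 scale. Among the risers, 29 were at 0 in every P5 KO library, and among the fallers 57 (39.86%) were at 0 in every 1.5M KO library. The count of calls rested on each 1.5M KO library: it was 148 without library 1, 149 without library 2 and 143 without library 3. Fitted to the 6 KO libraries alone, with fewer degrees of freedom and only their own spread, the count was 86. Of 97 genes named here and called, 45 kept the call in that fit. Those that lost it included Runx3 and H2-Ab1 (adjusted p = 0.0765 each), Il1b and Cd83 (0.101 each), B2m (0.0889), Mfge8 (0.0881) and Ccr2 (0.0678). After thinning to equal depth the count was 191. With voom, which weights molecule counts by their precision, 253 genes rose and 646 fell.

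The gene that the knockout concerns gives a weak check of the labels. Cbfb stood at 3.63, 1.46 and 2.40 in P5 KO and 1.92, 0.994 and 2.40 in 1.5M KO, a log2 difference of -0.32 (adjusted p = 0.802). In wt it was 3.91 to 4.97 at P5 and 7.15 to 13.8 at 1.5M, so the groups of the genotypes did not overlap at either age. Reads were primed at the poly(A) tail, and the values do not separate the splice forms of Cbfb. Runx3, the Runx factor linked to Langerhans cells, was 6.36, 10.2 and 4.80 in P5 KO and 33.1, 21.4 and 19.6 in 1.5M KO. All 1.5M libraries were above all P5 libraries, and Runx3 rose by 1.68 log2 (SE 0.34, adjusted p = 0.00478). Without 1.5M KO library 1 its adjusted p was 0.0583. Its change in wt was 1.02 (adjusted p = 0.0871), and the difference between genotypes was 0.66 (adjusted p = 0.62). Runx1 was 7.27 to 10.2 at P5 and 9.94 to 15.3 at 1.5M in KO (adjusted p = 0.758), and Runx2 was at or under 0.727 in every KO library.

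Genes of cells that the gate should leave out were among those that fell most. Of 26 tested keratinocyte genes 16 fell and none rose, with a median of -2.44 against -0.06 for all genes. Krt1, a keratin of the upper epidermal layers, was 242, 59.6 and 34.8 in P5 KO and 1.44, 0 and 0 in 1.5M KO. P5 KO library 1 stood well above the other P5 libraries, and no library of the later age came near any of them. Krt1 fell by 5.91 log2 (SE 0.52, adjusted p = 3.84e-07). Its partner Krt10 went from 260, 80.0 and 52.8 to 6.71, 3.48 and 1.92 (-4.49, adjusted p = 1.69e-05). The basal-layer keratins Krt5 and Krt15 fell by 3.29 (adjusted p = 0.000283) and 3.32 (adjusted p = 0.000219), and Ly6d, a surface protein of keratinocytes, changed by -3.90 (adjusted p = 1.1e-05). In wt cells 5 of the 26 keratinocyte genes fell, Krt1 among them (-3.50, adjusted p = 0.000127). Its difference between genotypes was -2.41 (adjusted p = 0.106).

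Neutrophil genes fell, most of them to 0. Of 12 tested, 8 fell and none rose (median -3.88). Of the 20 neutrophil genes in the table, 18 were at 0 in all 1.5M KO libraries and 3 in all P5 KO libraries. A 0 is common, as the 1.5M KO libraries held 7951 to 8222 of 23420 genes above 0. S100a8 was 35.4, 26.9 and 94.8 in P5 KO and 0 in each 1.5M KO library, and its dimer partner S100a9 was 34.5, 16 and 104 and then 0. P5 KO library 3 was the highest for both. Counting 3 molecules over a group as the floor (0.907 in P5 KO and 0.485 in 1.5M KO on the scaled counts), which covers counting error only, S100a8 was at least 108-fold lower and S100a9 at least 106.4-fold lower at 1.5M. Their adjusted p-values were 1.64e-06 and 1.72e-06. The stefins Stfa1 (21.5, 20.5 and 78.0 at P5), Stfa2, Stfa2l1 and Stfa3 also fell to 0. They are near-identical copies whose values are in part fractional, so the split between them is uncertain. In wt cells S100a8 was 0, 0 and 3.91 at P5 and 0 at 1.5M, and the difference between genotypes was -4.76 (adjusted p = 0.00101). S100a8 thus passed the filter only through the P5 KO libraries where it is high. Its adjusted p-values are therefore no independent support.

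Haemoglobin genes were carried by a pair of P5 libraries. Hba-a1 was 78.6, 125 and 0 in P5 KO and 0 in all 1.5M KO libraries (-4.43, adjusted p = 0.0182), and Hbb-b2 was 43.4, 33.1 and 0.396 and then 0 (-3.68, adjusted p = 0.0108). P5 KO library 3 overlapped the later age or lay just above it. Of 5 tested erythroid genes 4 fell (median -3.68). None of the 4 was called when P5 KO library 1 or 2 was left out, with adjusted p from 0.0596 to 0.153. Nor was any called when a 1.5M KO library was left out (0.0579 to 0.12). The haemoglobin genes are close copies with fractional values and are uncertain one by one.

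**Figure D1:**
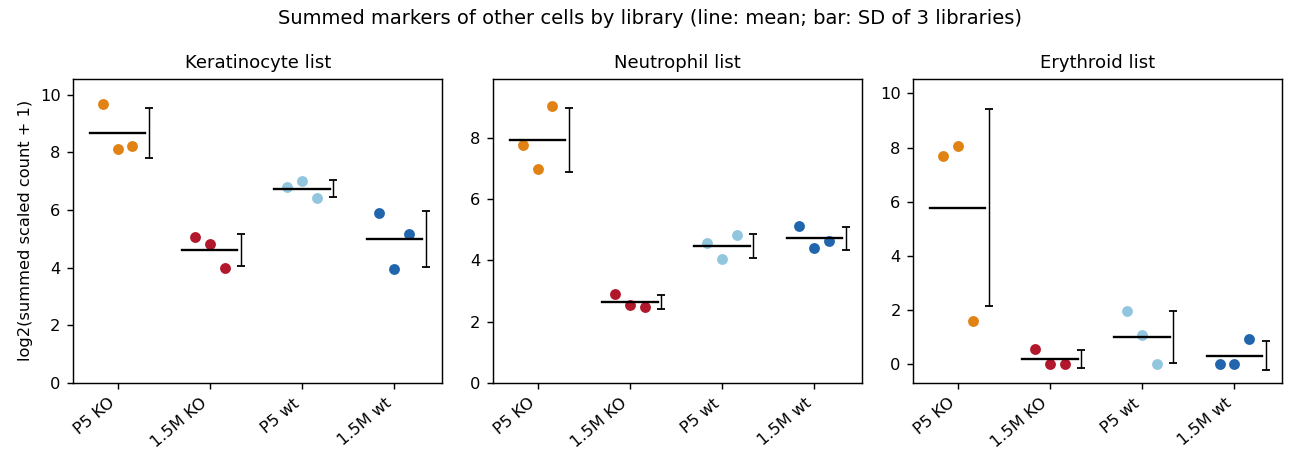
Summed scaled counts of the keratinocyte, neutrophil and erythroid lists on a log2(sum + 1) axis, 1 point per library, for P5 KO, 1.5M KO, P5 wt and 1.5M wt, with the mean as a line and the SD of 3 libraries as a bar. Keratinocyte sums of P5 KO lie at 277 to 814 and those of 1.5M KO at 14.9 to 32.1, and P5 KO library 3 lies apart in the erythroid panel. The neutrophil list includes Mmp9, which makes up most of its sums in 1.5M wt and which Langerhans cells also express.

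The summed markers of the plot varied widely between the P5 KO libraries. Keratinocyte genes summed to 814, 277 and 298 in P5 KO and to 32.1, 27.3 and 14.9 in 1.5M KO. Neutrophil genes summed to 219, 126 and 523 and then to 6.45, 4.79 and 4.53, and erythroid genes to 205, 268 and 1.99 and then to 0.479, 0 and 0. For each of the 3 lists all P5 sums exceeded all 1.5M sums, with an exact two-sided permutation p of 0.1, the smallest that 3 against 3 libraries can give. In all, 29 of the 143 genes that fell (20.28%) belonged to lists of other cell types. In bulk libraries fewer cells of a type and less RNA per cell cannot be told apart. With all 112 genes of the other-cell lists removed, called or not, and the libraries rescaled, 163 genes rose and 116 fell. T cell, B cell, mast cell, melanocyte and stromal genes were low in all KO libraries. Of the 11 tested, Cd2, a T and NK cell adhesion receptor, was called lower (2.73, 0.727 and 1.20 against 0). That call was lost without any 1.5M KO library (adjusted p 0.0822 to 0.0868).

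Of 17 tested class II genes 7 rose and none fell, with a median of 0.38. H2-Aa, the α chain of I-A, was 290, 330 and 379 in P5 KO and 666, 676 and 756 in 1.5M KO. The groups were far apart, and the mean rose from 333 ± 44.8 to 700 ± 49.5 (log2 change 1.08, SE 0.10, adjusted p = 5.89e-07). H2-Eb1, the β chain of I-E, was 111, 136 and 167 and then 333, 307 and 365 (1.29, SE 0.13, adjusted p = 1.64e-06). Cd74, the invariant chain that guides class II to the endosome, went from 474, 532 and 592 to 935, 998 and 1214 (0.97, adjusted p = 1.72e-06). Cd74 kept its direction but not its call with quantile normalization (adjusted p = 0.0587). H2-Ab1 rose by 1.22 (adjusted p = 2.85e-05).

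The other 3 risers on that list were less stable. Ifi30, a thiol reductase that opens antigens in the endosome, rose by 1.20 (adjusted p = 0.007), and by less than the threshold without 1.5M KO library 3 (0.0582). H2-DMb1, close in sequence to H2-DMb2 and uncertain, and H2-DMa, chains of the peptide editor, rose by 1.22 (adjusted p = 0.0156) and 0.80 (0.0139). H2-DMb1 lost its call without P5 KO library 1 (0.111) or without 1.5M KO library 1 (0.12) or 2 (0.0625). H2-DMa lost it without P5 KO library 1 (0.0725) or without 1.5M KO library 2 (0.0923) or 3 (0.108). Ciita, the master regulator of class II transcription, was 1.20 to 2.73 at P5 and 1.49 to 4.31 at 1.5M (adjusted p = 0.81), at a depth that leaves it near a few molecules. Ctss, the protease that trims the invariant chain, was 64.0 to 84.0 and then 70.6 to 85.3 (0.10, adjusted p = 0.869).

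Of 19 tested class I genes, B2m, H2-D1 and H2-M2 rose and none fell. B2m, the light chain of class I, was 104, 85.1 and 112 in P5 KO and 164, 170 and 166 in 1.5M KO (0.74, adjusted p = 0.00324). In wt B2m fell by 0.90, and the difference was 1.63 (adjusted p = 2.62e-05). H2-D1, whose values are fractional and uncertain beside its class I relatives, rose by 0.76 (adjusted p = 0.00295).

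Langerhans cell identity genes split. Of 12 tested, Cd207, H2-M2 and Mfge8 rose and Cldn1, Cd24a and Cd1d1 fell, with a median of 0.36. Cd207, the C-type lectin of Birbeck granules (chr6:83671215-83677857, minus strand), was at 0 in all P5 KO libraries and at 18.7, 19.4 and 24.9 in 1.5M KO. Its mean of 21.0 ± 3.41 was at least 23.17-fold above the P5 floor (fitted log2 change 4.45, adjusted p = 1.58e-08). In wt cells Cd207 was 0.711, 1.08 and 2.93 at P5 and 189, 201 and 252 at 1.5M. H2-M2, a class I-like gene, was 0, 1.46 and 0 and then 16.8, 14.9 and 15.8 (3.64, adjusted p = 1.22e-05). Mfge8, which bridges phagocytes to dying cells, was 0.908, 1.46 and 0 and then 5.75, 5.96 and 12.9 (2.38, adjusted p = 0.00046).

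The tight-junction and adhesion genes of this list did not follow Cd207. Cldn1, with which Langerhans cells dock into epidermal tight junctions, was 2.73, 1.46 and 4.80 in P5 KO and 0.479, 0 and 0.479 in 1.5M KO. It fell by 1.53 (adjusted p = 0.0137), and lost the call without P5 KO library 3 (0.0736) or 1.5M KO library 2 (0.0906). In wt Cldn1 rose from 8.68 to 13.7 at P5 to 56.2 to 57.8 at 1.5M, and the difference between genotypes had an adjusted p of 7.4e-05. Cd24a, a small surface glycoprotein, was 6.36, 1.46 and 6 and then 0, 0.497 and 0 (-2.13, adjusted p = 0.0206). Its call was lost in 5 of the 6 fits that left out a KO library, all but that without P5 KO library 2 (adjusted p 0.0659 to 0.118). Cldn1 and Cd24a are also keratinocyte products, and the part of the falling keratinocyte signal in their values was not tested. Cd1d1, which presents lipids, lost its call without any 1.5M KO library (0.0942 to 0.105) and with quantile normalization (0.077). The adhesion molecule Epcam was 5.45, 1.46 and 1.20 and then 5.28, 3.98 and 2.88 (adjusted p = 0.491), against 35.8 to 43.5 in 1.5M wt. Cdh1, E-cadherin, was 6.81, 5.27 and 2.40 and then 16.3, 3.48 and 8.62 (adjusted p = 0.405), so the groups overlapped for both.

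**Figure D2:**
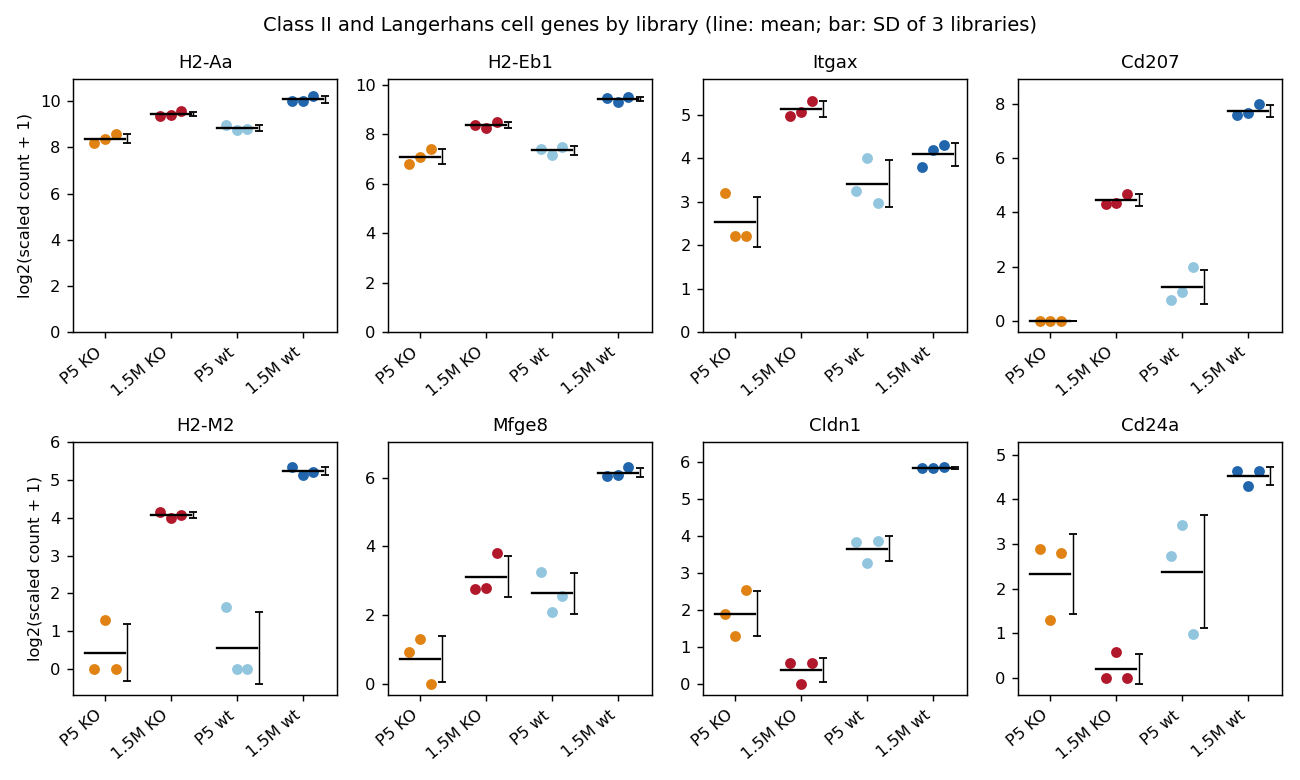
Scaled counts of 8 class II and Langerhans cell genes on a log2(count + 1) axis, 1 point per library, in P5 KO, 1.5M KO, P5 wt and 1.5M wt, with the mean as a line and the SD of 3 libraries as a bar. H2-Aa, H2-Eb1, Itgax, Cd207, H2-M2 and Mfge8 are higher in every 1.5M KO library than in any P5 KO library, and Cldn1 and Cd24a are lower.

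Itgax, the CD11c chain of the dendritic cell integrin, was 8.17, 3.64 and 3.6 in P5 KO and 30.7, 32.8 and 39.3 in 1.5M KO. No library of either age came near the other group, and Itgax rose by 2.60 (SE 0.32, adjusted p = 1.69e-05). Its change in wt was 0.68 (adjusted p = 0.26) and the difference 1.92 (adjusted p = 0.0236), which passed in 13 of 22 alternative fits, with the highest adjusted p (0.106) without 1.5M KO library 3. Ptprc (CD45) rose from 12.7, 18.9 and 13.2 to 36.0, 38.8 and 27.8 (1.15, adjusted p = 0.00922). It lost the call without 1.5M KO library 1 (0.0565) or 2 (0.0762). Itgam (CD11b) was 8 to 13.6 and then 10.5 to 11.9 (adjusted p = 0.908). Among 13 tested genes of conventional dendritic cells 1 rose, Itgax, and Zbtb46, the factor that marks that lineage, was at or under 0.727 in each KO library. Of 16 maturation genes Ccl17 and Cd83 rose. Cd83, a surface marker of mature dendritic cells, was 10.9, 24.7 and 10.8 and then 48.9, 42.2 and 37.9 (1.51, adjusted p = 0.00284).

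The promoters of Cd207 and of a pair of class II genes are shown because these genes carry the rise and because class II promoters share a known element. RefSeq sequence of GRCm38.p6 is given for the 250 bases before the start, 5′ to 3′ on the gene's strand. Capitals mark matches to the AP-1 motif TGACTCA in Cd207 and to the Y box CTGATTGG, the CCAAT element of class II promoters, in H2-Aa and H2-Eb1. These genes were chosen after their values were seen.
Cd207 (chr6:83677858-83678107, minus strand): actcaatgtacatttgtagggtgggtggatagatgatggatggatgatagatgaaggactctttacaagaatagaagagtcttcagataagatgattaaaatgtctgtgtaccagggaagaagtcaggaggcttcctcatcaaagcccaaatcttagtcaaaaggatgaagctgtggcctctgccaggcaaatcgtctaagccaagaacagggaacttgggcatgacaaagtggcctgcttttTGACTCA
H2-Aa (chr17:34287824-34288073, minus strand): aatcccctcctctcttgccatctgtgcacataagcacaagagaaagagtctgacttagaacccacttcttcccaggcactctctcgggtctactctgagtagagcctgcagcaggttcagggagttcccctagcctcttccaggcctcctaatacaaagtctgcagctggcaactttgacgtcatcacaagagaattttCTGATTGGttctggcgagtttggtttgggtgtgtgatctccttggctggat
H2-Eb1 (chr17:34305617-34305866, plus strand): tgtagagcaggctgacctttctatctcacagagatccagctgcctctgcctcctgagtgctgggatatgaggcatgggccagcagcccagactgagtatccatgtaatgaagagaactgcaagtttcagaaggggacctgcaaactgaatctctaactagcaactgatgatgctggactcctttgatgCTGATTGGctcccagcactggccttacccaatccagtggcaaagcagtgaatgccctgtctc
The AP-1 match in Cd207 begins 7 bases before the start, and the Y box begins 51 bases before the start in H2-Aa and 62 in H2-Eb1. Over both strands, 8 of the 121 risers with a promoter in the RefSeq table held the Y box (6.61%), as did 5 of 95 fallers (5.26%) and 6.04% of 7496 tested genes with one. TGACTCA was in 11 of the risers (9.09%), 7 of the fallers (7.37%), 3.9% of tested genes and 4.46% of all 32851 promoters of the table. The Y box was in 3.83% of all promoters. Shares of genes count a match in any promoter of a gene, while shares of all promoters count each promoter, so these are unlike units. A match describes the letters and no binding was measured.

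More macrophage genes rose than fell in KO cells, and in wt cells none rose. Of 22 tested genes of macrophages and monocytes 8 rose and 2 fell in KO (median 0.76), while in wt 10 fell (median -1.23). The difference between genotypes was called positive for 10 of the 22 and negative for none. Complement C1q, the recognition molecule of the classical pathway, was the clearest case. C1qa (chr4:136895917-136898803, minus strand) was 21.8, 15.3 and 22.8 in P5 KO and 116, 109 and 115 in 1.5M KO. In wt it was 27.0, 34.7 and 30.3 and then 4.61, 7.15 and 4.44. The P5 groups of the genotypes lay close together and the 1.5M groups lay on either side of them. C1qa rose by 2.46 in KO (SE 0.23, adjusted p = 5.89e-07) and fell by 2.33 in wt (adjusted p = 4.7e-07), a difference of 4.79 (adjusted p = 3.07e-09).

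Its neighbours on chromosome 4, C1qb and C1qc, also rose in KO. C1qb went from 29.1, 18.9 and 16.8 to 83.4, 83.0 and 100.0 (2.02, adjusted p = 0.000355), and C1qc from 29.1, 18.9 and 24.0 to 130, 150 and 150 (2.55, adjusted p = 4.42e-05). Both calls were lost with a pseudocount of 0.1 (adjusted p = 0.13 and 0.124). The differences from wt, 6.20 and 6.6, had an adjusted p of 6.15e-09 each and held in all 22 alternative fits. Of the other complement genes, Cfp (properdin) fell from 12.7, 16 and 8.40 to 1.92, 1.99 and 3.83 (-1.90, adjusted p = 0.0023).

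Ms4a7, a membrane protein of macrophages, was 8.17, 4.36 and 6 in P5 KO and 41.2, 35.3 and 44.6 in 1.5M KO (2.56, SE 0.36, adjusted p = 0.0001). In wt it went from 2.17 to 5.68 to 0 in each library, and the difference was 4.68 (adjusted p = 5.13e-06). The platelet and macrophage chemokine Pf4 rose from 10.9, 0.727 and 8.40 to 26.9, 46.7 and 45.0 (2.77, adjusted p = 0.0179). That call was lost without P5 KO library 2 (0.129) or without 1.5M KO library 1 (0.0537), 2 (0.14) or 3 (0.129).

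Weaker macrophage risers were Csf1r, the receptor for the growth factor CSF1 (0.82, adjusted p = 0.0398), and Cd68, a lysosomal glycoprotein (1.61, adjusted p = 0.0237). Csf1r kept its call in 1 of the 6 fits that left out a KO library, that without P5 KO library 3, and the highest adjusted p was 0.233 without 1.5M KO library 3. Cd68 lost the call without P5 KO library 1 (0.052) or 3 (0.0998) or without 1.5M KO library 2 (0.154) or 3 (0.127). Mrc1, the mannose receptor, Cx3cr1, the fractalkine receptor, and Cd14, the lipopolysaccharide co-receptor, were not called in KO (log2 differences of 0.70, 1.03 and 0.82). All 3 fell in wt, and the differences between genotypes were 3.93 (adjusted p = 0.000153), 2.56 (0.00919) and 2.34 (0.00376).

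The 2 fallers of that list were genes that monocytes carry. Ccr2, the receptor through which monocytes leave the marrow, was 8.17, 17.4 and 28.8 in P5 KO and 2.40, 1.49 and 0.479 in 1.5M KO (-2.88, adjusted p = 0.000608). All P5 libraries were higher than all 1.5M libraries. Fn1, fibronectin, was 16.4, 18.2 and 34.8 and then 3.84, 0.994 and 0.479 (-3.23, adjusted p = 0.00749), and lost its call without P5 KO library 3 (0.0567) or without 1.5M KO library 2 (0.0767) or 3 (0.0903). Ly6c2, a surface protein of inflammatory monocytes, was 0, 7.27 and 2.40 and then 0, and did not pass the filter. In wt Ccr2 fell by 1.94 (adjusted p = 0.017), and the difference in the change was -0.95 (adjusted p = 0.613).

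Genes of Fc receptors, which bind antibody, gave no call in KO among 11 tested by limma (3 at an unadjusted p under 0.05 and 1 by voom). In wt 3 of them fell (median -0.93), and 3 differences were positive. Lysosomal genes were mostly not called. Of 36 tested, 3 rose, Cd63 and Cd68 among them, and none fell (median 0.11), while in wt 9 fell (median -0.61) and 6 differences were positive. Lgmn, the protease legumain, was 29.1 to 46.3 and then 29.2 to 38.3 in KO (adjusted p = 0.88) and fell by 3.34 in wt, a difference of 3.19 (adjusted p = 2.91e-05). Tmem119, a membrane protein known from microglia, was 7.27, 3.64 and 13.2 and then 15.8, 13.4 and 11.5 (0.83, adjusted p = 0.323). In wt Tmem119 went from 12.1, 20.6 and 22.5 to 0 in every library.

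TGF-β pathway genes included 5 risers and no faller among 26 tested (median 0.53). In wt 3 rose and 5 fell (median -0.46), and the difference was positive for 6 and negative for none. Tgfbi, a secreted matrix protein named for its induction by TGF-β (chr13:56609523-56639562, plus strand), was 40, 40 and 39.6 in P5 KO and 98.8, 136 and 130 in 1.5M KO. In wt it was 19.9, 26.0 and 20.5 at P5 and 0 in each 1.5M library, at least 26.64-fold lower. Tgfbi rose by 1.57 in KO (SE 0.23, adjusted p = 0.000203), and the difference from wt was 6.10 (adjusted p = 6.6e-11). Among the feedback inhibitors, Smad7, which blocks the receptor, was 1.82, 2.18 and 1.20 and then 8.63, 16.4 and 10.5 (2.21, adjusted p = 0.00069). Pmepa1, which binds Smads, rose from 6.36, 4.36 and 3.6 to 30.7, 39.3 and 32.1 (2.62, adjusted p = 0.000262), though not with a pseudocount of 0.1 (adjusted p = 0.105). Pmepa1 fell by 1.93 in wt, a difference of 4.55 (adjusted p = 2.91e-05), while Smad7 rose by 1.31 in wt with a difference of 0.90 (adjusted p = 0.493).

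The receptors gave less certain values. Tgfbr2 was 4.54, 1.46 and 3.6 and then 13.9, 18.9 and 11 (1.94, adjusted p = 0.0167). Its call was lost without P5 KO library 2 (0.0939) or without 1.5M KO library 1 (0.0742), 2 (0.137) or 3 (0.0578). Tgfbr1 was 10.9, 8 and 12 and then 20.1, 23.4 and 25.4, groups that did not overlap, with an adjusted p of 0.0596. It fell by 3.33 in wt, and the difference was 4.43 (adjusted p = 1.81e-06). Skil, a co-repressor of Smads, rose by 1.3 (adjusted p = 0.0207), and lost the call in 5 of the 6 fits that left out a KO library, all but that without P5 KO library 3 (0.0744 to 0.0963).

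Of 20 tested genes of matrix and its proteases 5 rose and 2 fell (median 0.49). Mmp12, macrophage elastase, was 1.82, 0 and 0 in P5 KO and 57.1, 29.3 and 25.4 in 1.5M KO (4.67, SE 0.48, adjusted p = 1.64e-06). Mmp13, a collagenase (chr9:7272514-7283331, plus strand), was 0.908, 0 and 0 and then 11.5, 12.4 and 15.3 (3.50, SE 0.46, adjusted p = 4.42e-05). For both, each 1.5M library was above each P5 library, and 1.5M KO library 1 was the highest for Mmp12. In wt Mmp12 was 3.55, 1.08 and 1.95 and then 0, and Mmp13 was at 0 in all 6 libraries. The differences between genotypes were 6.27 for Mmp12 (adjusted p = 4.68e-06) and 3.50 for Mmp13 (adjusted p = 0.00321). With Mmp13 at 0 in wt, its difference restates its change in KO. Mmp13 passed the filter only through the 1.5M KO libraries where it is high. Its adjusted p-values are therefore no independent support.

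Mmp9, a gelatinase that Langerhans cells use to leave the epidermis, had a negative difference between genotypes. It was 1.82, 0 and 2.40 in P5 KO and 0 in every 1.5M KO library (adjusted p = 0.32). In wt it rose from 0, 1.08 and 0 to 24.9, 18.6 and 16, and the difference was -5.09 (adjusted p = 0.000134). Mmp9 is also on the neutrophil list and made up most of its 1.5M wt sums (34.1, 20.2 and 23.6). Plau, urokinase, rose by 2.26 (adjusted p = 0.013), and Timp2, an inhibitor of matrix metalloproteases, by 2.01 (0.0127). Plau lost its call in 5 of the 6 fits without a KO library, all but that without P5 KO library 3 (0.0565 to 0.0942). Timp2 lost it without P5 KO library 1 (0.0692) or 2 (0.0732) or without 1.5M KO library 2 (0.0815) or 3 (0.101).

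The Mmp13 promoter is printed since the gene was found in no wt library and in each 1.5M KO library, and since a Runx core and an AP-1 element before this gene are well known from bone. Capitals mark ACCACA, the Runx core TGTGGT read on the other strand, and the AP-1 motif TGACTCA, in RefSeq sequence of GRCm38.p6.
Mmp13 (chr9:7272264-7272513, plus strand): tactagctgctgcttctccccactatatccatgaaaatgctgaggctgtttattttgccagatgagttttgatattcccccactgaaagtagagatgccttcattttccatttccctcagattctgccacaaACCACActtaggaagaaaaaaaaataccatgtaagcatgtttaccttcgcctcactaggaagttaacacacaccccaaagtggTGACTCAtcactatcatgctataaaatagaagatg
The Runx core begins 118 bases before the start and the AP-1 motif 35, and they do not overlap. Over both strands, TGTGGT was in 19 of 121 risers with a promoter in the table (15.7%), 18 of 95 fallers (18.9%), 12.6% of tested genes and 14% of all promoters. The last share is per promoter and the others are per gene.

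**Figure D3:**
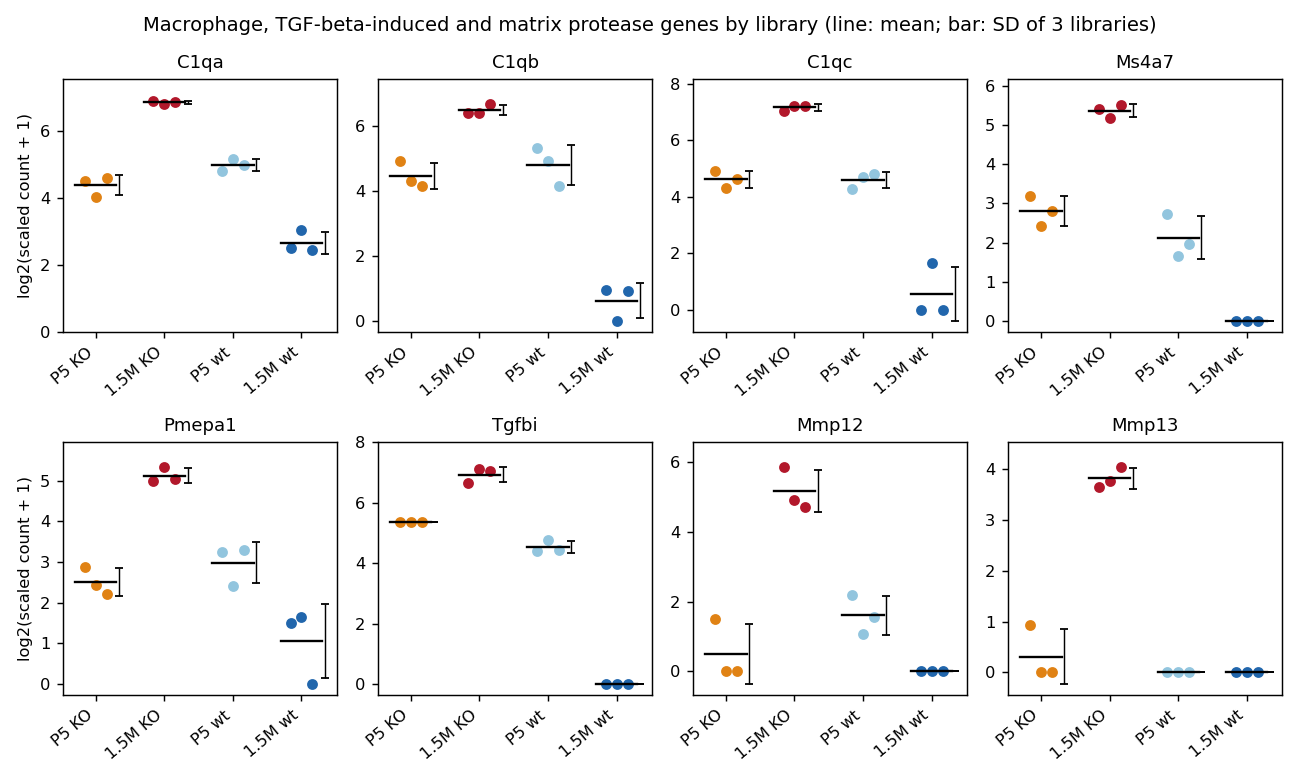
Scaled counts of C1qa, C1qb, C1qc, Ms4a7, Pmepa1, Tgfbi, Mmp12 and Mmp13 on a log2(count + 1) axis, 1 point per library, in P5 KO, 1.5M KO, P5 wt and 1.5M wt, with the mean as a line and the SD of 3 libraries as a bar. In every panel the 3 1.5M KO libraries lie above the other 9, and in 1.5M wt Ms4a7, Tgfbi, Mmp12 and Mmp13 are at 0.

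Chemokine ligands moved in both directions. Of 17 tested 4 rose and 6 fell (median -1.27). Ccl17, which draws Ccr4-bearing T cells, was at 0 in all P5 KO libraries and 48.4, 14.4 and 18.2 in 1.5M KO. The rise was at least 29.8-fold over the floor (fitted log2 change 4.61, adjusted p = 4.07e-06). In wt Ccl17 did not exceed 0.977 in any library, and the difference was 4.68 (adjusted p = 0.000385). At such wt values Ccl17 passed the filter largely through the 1.5M KO libraries where it is high, so its adjusted p-values are weak support. Cxcl16, a membrane-bound ligand for Cxcr6, was 13.6, 16 and 14.4 and then 54.2, 55.2 and 70.0 (1.95, adjusted p = 5.89e-07). Cxcl1, a neutrophil attractant, rose by 2.31 (adjusted p = 0.00709), and lost the call without 1.5M KO library 2 (0.0565) or 3 (0.0791). Ccl22, the neighbouring ligand to Ccl17 for Ccr4, was 0 in P5 KO and 10.6, 9.45 and 1.44 in 1.5M KO (adjusted p = 0.0651).

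Several CC chemokines fell. Ccl6 was 18.2, 24.7 and 31.2 in P5 KO and 0, 0.497 and 0 in 1.5M KO (-4.46, adjusted p = 6.51e-05). Ccl4 was 18.2, 23.3 and 4.80 and then 1.92, 1.49 and 0.479 (-2.66, adjusted p = 0.00387), with 0.0546 when 1.5M KO library 3 was left out. Ccl2, Ccl3, Ccl9 and Cxcl14 were also called lower, by 2.06, 2.54, 1.80 and 1.91 on the log2 scale. Each of these 4 lost its call in at least 2 of the 6 fits without a KO library, with adjusted p up to 0.233. Among receptors, Ccr1 fell by 1.88 (adjusted p = 0.0358) and was lost in 5 of those 6 fits, all but that without 1.5M KO library 1 (0.082 to 0.199). Fpr2, a formyl peptide receptor, was 2.73, 2.18 and 1.20 and then 0 (-1.57, adjusted p = 0.00454). Cxcr4, the receptor for Cxcl12, rose from 12.7, 14.6 and 13.2 to 38.8, 42.8 and 35.9 (1.47, adjusted p = 0.0232). Its call was lost in each of the 6 fits (0.0551 to 0.132), while its difference from the wt change, 3.40 (adjusted p = 0.000297), held in all 22 alternatives.

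Cytokine genes included Il1b, the secreted interleukin-1, at 30.9, 105 and 64.8 in P5 KO and 186, 215 and 278 in 1.5M KO. P5 KO library 2 was the highest of its group and still under every 1.5M library (1.89, SE 0.29, adjusted p = 0.000234). Il1b rose by 2.67 in wt, with a difference of -0.78 (adjusted p = 0.421). Il10, an anti-inflammatory cytokine, was 0 in P5 KO and 1.92, 1.49 and 0.958 in 1.5M KO, at least 1.606-fold above the floor. These are a few molecules per library. Il10 was 0 in all wt libraries and passed the filter only through the 1.5M KO libraries where it is high. Its adjusted p of 0.0101 is therefore no independent support, and fitted to the 6 KO libraries alone it was 0.101. Il1r2, the decoy receptor for interleukin-1, rose by 1.27 (adjusted p = 0.0251). It lost the call without P5 KO library 1 (0.104) or 3 (0.102) or without 1.5M KO library 1 (0.142) or 2 (0.151). Its rise in wt was larger, at 4.38, and the difference had an adjusted p of 0.00019. Tnfaip3, which restrains NF-kappaB, rose by 1.41 (adjusted p = 0.012) and lost the call without P5 KO library 2 (0.0744) or without 1.5M KO library 2 (0.067) or 3 (0.0903). It was the single NF-kappaB gene called among 18 tested, against 6 risers in wt.

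Of 24 immediate early genes, which respond within minutes to stimuli and to handling of cells, 4 rose and none fell (median 0.32). In wt 13 rose (median 1.22). Fosb was 13.6, 8.73 and 10.8 in P5 KO and 91.1, 61.1 and 68.0 in 1.5M KO (2.63, SE 0.27, adjusted p = 1.72e-06), and rose by 3.14 in wt. Atf3, a stress-induced factor, was 6.36, 11.6 and 8.40 and then 36.5, 44.2 and 31.6 (1.99, adjusted p = 0.00023). Fos rose by 0.97 (adjusted p = 0.0237) and lost its call in each fit without a KO library (0.0538 to 0.125). Dusp1 rose by 1.05 (adjusted p = 0.0181) and lost it without P5 KO library 3 (0.0998) or any 1.5M KO library (0.0565 to 0.131). Egr1 was 6.55 to 14.4 and then 9.10 to 14.4 (adjusted p = 0.86). Among 18 chaperones, Hspa5, a chaperone of the endoplasmic reticulum, rose from 9.99, 10.9 and 15.6 to 45.1, 41.3 and 32.6 (1.64, adjusted p = 0.000402). The inducible heat shock genes Hspa1a and Hspa1b, near-identical copies whose split is uncertain, fell by 1.21 (adjusted p = 0.0273) and 1.34 (0.00589). Both lost the call without several KO libraries, up to 0.176 for Hspa1a without 1.5M KO library 1 and 0.067 for Hspa1b without 1.5M KO library 2.

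Genes of lipid handling fell where they were called. Apoe, the lipid-carrying apolipoprotein of macrophages, was 55.4, 64.0 and 69.6 in P5 KO and 2.88, 5.47 and 4.31 in 1.5M KO. The means were 63.0 ± 7.15 and 4.22 ± 1.3, and Apoe fell by 3.64 (SE 0.32, adjusted p = 3.84e-07). In wt it was 14.2, 48.8 and 34.2 and then 35.9, 24.3 and 32.0, so that the wt groups overlapped, and the difference was -3.71 (adjusted p = 2.59e-05). Plin2, which coats lipid droplets, went from 12.7, 13.1 and 9.60 to 1.44, 2.48 and 2.40 (-2.05, adjusted p = 0.00295), and did not pass after thinning to equal depth (adjusted p = 0.0772). Of 18 lipid genes these 2 fell and none rose.

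In eicosanoid synthesis, Ptgs1, the constitutive cyclooxygenase, was 4.54, 5.09 and 6 in P5 KO and 0.479, 0 and 0 in 1.5M KO (-2.44, SE 0.33, adjusted p = 6.51e-05). In wt it rose from 8.79 to 12.1 at P5 to 25.8 to 45.1 at 1.5M, and the difference was -4.06 (adjusted p = 1.23e-05). Alox5, the first enzyme of leukotriene synthesis, was 0.908, 2.91 and 4.80 and then 10.1, 11.4 and 13.9 (1.85, adjusted p = 0.00244). It did not pass after thinning (adjusted p = 0.166).

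Of 24 tested cytoskeleton genes 4 rose and 1 fell (median 0.35). Vim, the intermediate filament vimentin, was 148, 199 and 167 in P5 KO and 345, 405 and 395 in 1.5M KO (1.16, SE 0.13, adjusted p = 4.91e-06), with a difference from wt of 1.54 (adjusted p = 1.76e-05). Lmna, which builds the nuclear lamina, went from 15.4, 28.4 and 22.8 to 76.7, 88.5 and 96.3 (1.96, adjusted p = 2.2e-06), and also rose in wt (1.58). Lcp1, the actin bundler plastin, rose by 1.52 (adjusted p = 1.75e-05). Tmsb10, an actin-binding thymosin, fell from 26.3, 52.4 and 32.4 to 5.28, 1.99 and 1.92 (-3.27, adjusted p = 5.7e-06), and fell in wt too (-2.04). The tetraspanins Cd63, Cd81 and Cd9 rose by 1.94, 2.42 and 1.25 (adjusted p = 0.000206, 0.00126 and 0.000377), Cd81 not with a pseudocount of 0.1 (0.179). Anxa5, an annexin that binds phosphatidylserine, rose by 1.57 (adjusted p = 0.000745).

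Outside the lists, the rule for the largest changes named a few more genes. Zmynd15, a zinc finger gene, was 0.908, 2.91 and 1.20 in P5 KO and 30.7, 36.8 and 30.2 in 1.5M KO (3.72, adjusted p = 1.22e-05). In wt it went from 20.6, 16.3 and 18.6 to 0, 2.15 and 4.44, and the difference of 6.63 (adjusted p = 6.97e-07) was the largest positive one among the named genes in this fit. Zmynd15 (chr11:70459433-70466202, plus strand) overlaps Cxcl16 (chr11:70453983-70459984, minus strand) in the GENCODE annotation of GRCm38. Whether the counting used strand was not given in the sources used here. Dnase1l3, a secreted nuclease, and Fxyd2, a regulator of the sodium pump, were at 0 in P5 KO and at 9.10 to 11.9 and 4.47 to 8.62 in 1.5M KO. They were at least 11.97-fold and 7.637-fold above the floor (adjusted p = 5.37e-05 and 0.000377). Pxdc1 rose by 2.69 in KO (adjusted p = 0.00023) and by 3.06 in wt. Retnla, a secreted protein of alternatively activated macrophages, was 43.6, 3.64 and 58.8 and then 0, at least 72.86-fold lower. With 0 in all wt libraries too, it passed the filter only through the P5 KO libraries where it is high. Its adjusted p of 0.000152 is therefore no independent support, and fitted to the 6 KO libraries alone it was 0.0972.

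Housekeeping and proliferation lists gave few calls, as did all tested genes, of which 1.72% rose and 1.43% fell. limma called none of 81 respiratory chain genes (2 at an unadjusted p under 0.05 and 0 by voom), with a median of -0.07. It called none of 42 proteasome genes (2 unadjusted, 1 by voom, median -0.20) and none of 22 cholesterol synthesis genes (1 unadjusted, 0 by voom). Of 83 ribosomal protein genes, a family with many near-identical pseudogenes, Rpl41 and Rps28 fell, by 0.64 (adjusted p = 0.0094) and 0.84 (0.0112). Rpl41 lost its call without 1.5M KO library 1 (0.0634) or 3 (0.0556), and Rps28 without P5 KO library 2 (0.0754) or without 1.5M KO library 2 (0.0806) or 3 (0.0797). Of 52 cell cycle genes the cyclins Ccnd1 and Ccnd2 were called, Ccnd1 higher and Ccnd2 lower. Ccnd1 lost its call without P5 KO library 1 (0.0511), without 1.5M KO library 1 (0.0689) or 2 (0.0713), and after thinning. Mki67, a marker of cycling cells, was 2.40 to 8 and then 1.92 to 4.31 (adjusted p = 0.735). Of 32 interferon-stimulated genes Ifitm3 fell, from 14.5, 13.1 and 15.6 to 1.92, 1.99 and 3.59 (-2.17, adjusted p = 0.000752), as it did in wt (-2.83).

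The change with age was then set beside that of wt cells, a comparison that shares no library with it. In wt 237 genes rose (2.36%) and 285 fell (2.84%), with a median of -0.22. With median-of-ratios scaling the wt split turned to 289 and 184 and the median moved to -0.11, and with quantile normalization the split was 278 and 225. Of the 172 KO risers 40 also rose in wt (23.26% of them, and 16.88% of the wt risers), 17 fell in wt (9.884%) and 115 were not called. Of the 143 KO fallers 26 also fell in wt (18.18%, and 9.123% of the wt fallers), 5 rose (3.497%) and 112 were not called. A gene called in a single genotype need not differ between them. Y-linked genes summed to 0 in each P5 wt library and to 2.76, 4.79 and 3.55 in the 1.5M wt libraries, and Xist was 16.6 to 36.9 and then 6.45 to 13.3. Of 4 tested X-inactivation and Y-linked genes 1 was called lower in wt. For 1, the Y-linked Ddx3y, the difference between genotypes was called negative, a call kept in 7 of 22 alternative fits. The part of this shift in the other wt changes and differences between genotypes was not tested.

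The difference between the age changes was therefore tested itself. It was positive for 132 genes (1.32%) and negative for 68 (0.678%), and with voom for 188 and 160. It was called for 56 of the 172 KO risers in the positive direction (32.56%) and for 19 of the 143 KO fallers in the negative direction (13.29%). The difference contains the KO change by which these genes were chosen. The selection itself therefore raises these shares above those of all genes, and they are no independent support. Of the 132 positive differences, 75 were genes that fell in wt and 56 were genes that rose in KO, with 17 in both sets. Those 17 included C1qa, C1qb, C1qc, Ms4a7, Tgfbi, Pmepa1 and Zmynd15. Of the 68 negative differences, 51 were genes that rose in wt and 19 genes that fell in KO, with 5 in both sets, Cldn1, Cd24a, Ptgs1 and Nedd4 among them. Nedd4, a ubiquitin ligase, was 2.73, 3.64 and 3.6 and then 0 in KO, and 0.977 to 1.42 and then 12.9 to 17.8 in wt (difference -4.97, adjusted p = 5.18e-06). Prnp, the prion protein, did not exceed 2.73 at P5 or 0.479 at 1.5M in KO libraries, and in wt it was 0 at P5 and 15.7 to 24.0 at 1.5M (difference -4.82, adjusted p = 0.000312).

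**Figure D4:**
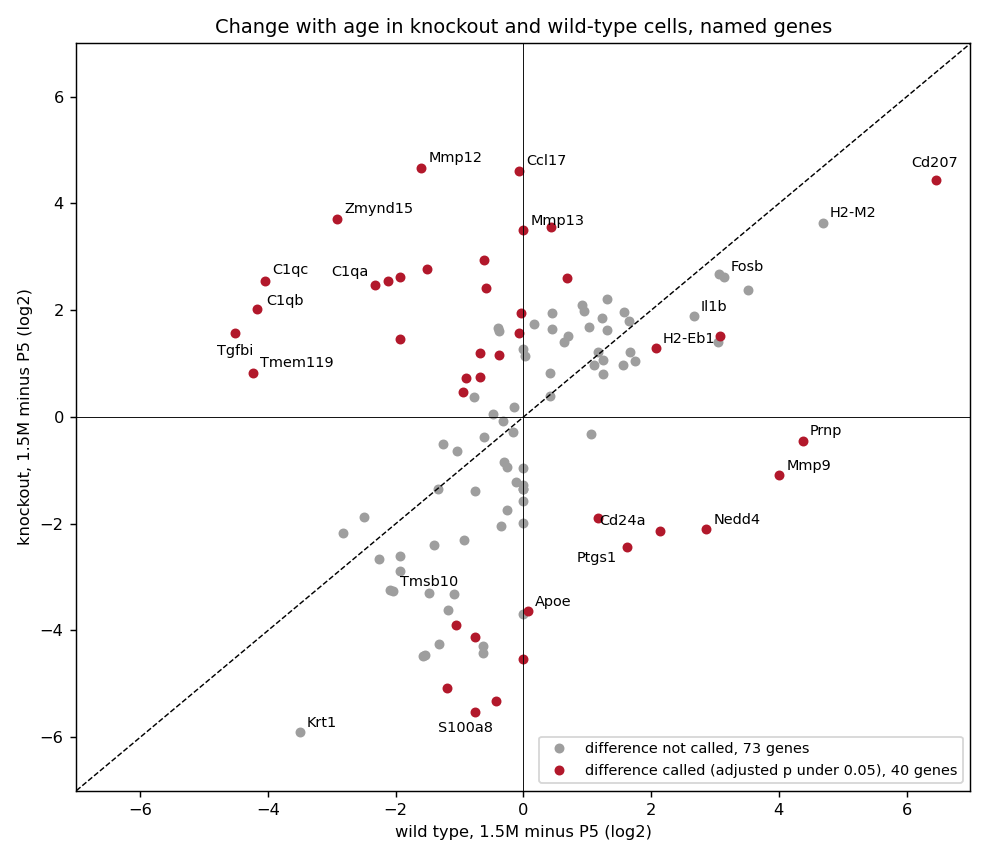
Log2 change from P5 to 1.5M in wt cells (x axis) and in KO cells (y axis) for the 113 named genes that were tested, 1 point per gene, with the dashed line marking equal change. Red points are the 40 genes whose difference between genotypes was called in the limma fit, and C1q genes, Tgfbi and Zmynd15 lie at upper left, where KO rose and wt fell.

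No difference between the genotypes' age changes was called for H2-Aa or Cd74, and none was shown to be absent. H2-Aa rose by 1.08 in KO and 1.25 in wt, a difference of -0.18 (SE 0.15, adjusted p = 0.678), and Cd74 by 0.97 and 1.10 (-0.13, adjusted p = 0.778). H2-Eb1 rose less in KO than in wt (-0.78, adjusted p = 0.0272), a call lost in 11 of 22 alternatives, with the highest adjusted p (0.137) without 1.5M KO library 2. Cd207 rose by 4.45 in KO and 6.47 in wt, a difference of -2.02 (adjusted p = 0.0141). Because the P5 KO libraries are at 0, that difference depends on the pseudocount, and it was 0.49 (adjusted p = 0.823) with a pseudocount of 0.1. Its call was also lost without 1.5M KO library 1 (0.055) or 2 (0.0614) or without 1.5M wt library 3 (0.0687), after thinning to equal depth (0.195) and with voom (0.347). At 1.5M itself the Cd207 libraries of the genotypes did not overlap, at 18.7 to 24.9 in KO and 189 to 252 in wt.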

How the data were processed

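RNA of sorted tubes was primed with oligo-dT and barcoded by molecule, with ERCC spike-ins, per the labels' protocols. Reads were aligned with TopHat2 to mm10, per the submitters' processing notes. The deposited signal values are molecule counts that the authors brought to the same total of 37092 in every library. How the totals were equalised, and which counter, gene models and strand setting were used, is not given in the sources used here. Molecule numbers were inferred by dividing each library by its most common value above 0, after which 92.6% to 94.9% of values were whole. Since not all were whole, no count model was the main test. The alternatives with voom and with thinning used these inferred counts. Genes above 0 in at least 3 of 12 libraries were kept. log2(value + 1) was fitted with limma 3.58.1 (trend, 4 group means over all 12 libraries) in R 4.3.3, with Benjamini-Hochberg adjustment over 10023 genes, and fold changes on this scale understate those of low genes. The fit was tested on data simulated for all 12 libraries, each at its own depth, with a dispersion that was set and not estimated. Changes were put only into genes above a minimum KO mean, so the rates do not cover lower genes. There 5% of 2-fold and 20% of 4-fold changes were called, and 6 unchanged genes of 10023.

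Members and the 47 gene lists were chosen with earlier results of these data known. Genes named are the 14 largest changes per direction in KO (groups not overlapping, higher mean at least 5), the 6 largest differences between genotypes per direction, up to 4 called members per list (or, with none called, the 1 of highest mean), Cbfb, the Runx genes and gate genes. Names that are only clone identifiers are counted, not named, and a few genes are not reported here. Ccl2, Ccl3, Ccl9, Ccl22, Cd14, Cd1d1, Cd9, Cdh1, Ciita, Cldn1, Ctss, Cx3cr1, Cxcl1, Cxcl14, Cxcl16, Egr1, Epcam, H2-DMa, Il1r2, Lgmn, Ly6c2, Mki67, Mrc1, Plau, Skil, Tgfbr1, Timp2 and Zbtb46 were named after their values were seen. Floors are 3 molecules over a group. Gene coordinates are from GENCODE on GRCm38, 1-based.

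Replicate numbers were tested for pairing on 5477 genes, and the correlations of same-numbered KO libraries were 0.016, -0.015 and 0.006, so they do not pair. Alternatives were other pseudocounts (0.1 and 10), no filter, a filter at a mean of 1, median-of-ratios scaling, quantile normalization, thinning to 30913 molecules, voom, the replicate block, the 6 libraries of a genotype alone, leaving out 112 genes of other cells, and leaving out each library.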

Additional observations from a re-analysis of the deposited data

Results flagged for a closer look

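The age change differed between KO and wt cells, by the interaction term in limma at an adjusted p under 0.05, for 40 of the named genes. Values are the log2 change in KO minus that in wt. Positive differences among macrophage and complement genes were C1qa 4.79, C1qb 6.20, C1qc 6.6, Ms4a7 4.68, Pf4 4.28, Tmem119 5.06, Tyrobp 1.41 and Cd63 1.98. Among TGF-β and matrix genes they were Tgfbi 6.10, Pmepa1 4.55, Mmp12 6.27 and Mmp13 3.50. Ccl17 stood at 4.68, Cxcr4 at 3.40, Itgax at 1.92, Cd81 at 3.00, Vim at 1.54 and Anxa5 at 1.64. Presentation genes with positive differences were B2m 1.63, H2-D1 1.44 and Ifi30 1.88, and Zmynd15, Dnase1l3 and Fxyd2 had 6.63, 3.13 and 3.56.

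Negative differences were found for the Langerhans cell and maturation genes Cd207 (-2.02), Cd24a (-4.28), Cd83 (-1.57) and H2-Eb1 (-0.78). Mmp9 had -5.09, Nedd4 -4.97, Prnp -4.82, Ptgs1 -4.06, Apoe -3.71 and Cfp -3.06. Genes of neutrophils, keratinocytes and alternatively activated macrophages with negative differences, all highest in P5 KO, were S100a8 (-4.76), S100a9 (-4.89), Stfa1 (-3.88), Stfa2l1 (-3.37), Ly6d (-2.84) and Retnla (-4.53). Since Retnla and Mmp13 were absent from every wt library, their differences restate their changes in KO. Retnla, Mmp13 and S100a8 passed the filter only through the KO libraries where they are high, so these calls are no independent support.

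The calls for Cd207, Cd83, H2-Eb1, Anxa5, Itgax, Pf4, Ly6d and Tyrobp were each lost when 1 library was left out. The highest adjusted p was 0.154 for Cd83 and 0.106 for Itgax and 0.0697 for Tyrobp without 1.5M KO library 3. It was 0.137 for H2-Eb1, 0.0892 for Anxa5 and 0.0779 for Pf4 without 1.5M KO library 2. For Ly6d it was 0.0831 without P5 KO library 1, and for Cd207 0.0687 without 1.5M wt library 3. With a pseudocount of 0.1 the differences of Mmp13 (adjusted p = 0.111), Dnase1l3 (0.161), Cd81 (0.0887), Ly6d (0.335), Pf4 (0.16), Cd207 (0.823), Cd83 (0.0853), Itgax (0.0563), S100a8 (0.0996), S100a9 (0.0662), Stfa1 (0.132) and Stfa2l1 (0.209) were not called. After thinning to equal depth the calls were lost for Cd63 (adjusted p = 0.085), Ifi30 (0.0535), Retnla (0.106), Cd81 (0.138), Cd207 (0.195), Pf4 (0.14), Tyrobp (0.0811), Anxa5 (0.0675), Cd83 (0.0886), H2-Eb1 (0.0734), Ly6d (0.055) and Itgax (0.0505).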

How the results depend on the processing

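The count of 315 genes changed with age in KO was 191 after thinning to equal depth, 899 with voom on molecule counts (253 higher and 646 lower), 86 with the 6 KO libraries alone and 143 to 269 with 1 library left out. The difference between genotypes, 200 genes, was called for 133 with a pseudocount of 0.1, 99 after thinning, 348 with voom (188 positive and 160 negative) and 115 to 198 with 1 library left out, lowest without 1.5M KO library 3. The 522 wt genes became 251 after thinning, 111 with the 6 wt libraries alone and 365 to 395 with 1 library left out. Other settings stayed within 1.5 times of each count. The difference in detected genes between ages, 633.3 higher at 1.5M, was -727.3 after thinning, and the Cd207 difference was 0.49 with a pseudocount of 0.1; the cause was not tested. With voom the median over all genes in KO was -0.42. Under the replicate block 315 KO genes were called (170 higher and 145 lower), 195 differences and 504 wt genes. Since the numbers do not pair the libraries, it is given for completeness, and 1 of 3 KO libraries correlated best with its own number. Of 97 named genes called in KO, 96 passed with the block, where Hvcn1 had an adjusted p of 0.0538. Of those 97 genes 74 passed with a pseudocount of 0.1, 96 with median-of-ratios scaling and 45 with the 6 KO libraries alone, and none changed direction. On data simulated with 3 libraries a group, each at its own depth and with a set dispersion, 20% of 4-fold changes were recovered. The 6 unchanged genes called there were a larger share of the calls than the 0.05 threshold. The changed genes were above a minimum KO mean.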

Other observations

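Y-linked genes summed to 2.73, 2.18 and 8.40 in the P5 KO libraries and to 1.60, 0.99 and 0.96 in the 1.5M KO libraries, and Xist was 9.08, 10.9 and 13.2 and then 7.19, 5.97 and 9.58. In wt the Y-linked sum was 0 in each P5 library and 2.76, 4.79 and 3.55 at 1.5M, and Xist was 36.9, 21.7 and 16.6 and then 6.45, 9.3 and 13.3.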
